A study of Mus musculus with 22 samples.

Results

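The transcripts described here are those of 10 neutrophil granule genes, followed through RNA sequencing libraries of sorted mouse microglia. The members were named by symbol as S100a8, S100a9, Ltf, Lcn2, Camp, Ngp, Mmp8, Mmp9, Elane and Retnlg, out of 18072 genes in the table, and they were chosen with their values in these libraries known. Values were analysed for 8 of them, and Ngp and Mmp8 were not analysed here. The member levels are therefore given as a description, without a test.

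The study measured microglia, the resident macrophages of the brain, from C57BL/6J mice that received no treatment and whose labels carry the prefix SPF. Cells had been sorted by flow cytometry from whole brain as CD11b+CD45lowLin-, and the labels do not name the antibodies behind Lin-. The 22 libraries comprise young adult mice of 6 to 10 weeks (3 female, 3 male), middle-aged mice of 50 to 54 weeks (5 female, 5 male) and aged mice of 96 to 104 weeks (3 female, 3 male). Each library is named by its age, sex and replicate number in the labels, which do not say whether it came from 1 animal or from a pool.

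Neutrophils are short-lived white blood cells that fill their granules while they mature in the bone marrow, primary granules early and secondary and tertiary granules later. Granule transcripts are made in the precursors and decline as the cell matures, whereas the S100a8 and S100a9 proteins accumulate in the cytosol and form the calprotectin complex. Neutrophils also carry CD11b, the integrin used in the sort, but they carry CD45 at a high level, whereas the sort took cells low in CD45. In healthy brain tissue they are found mainly in the blood vessels, the meninges and the marrow of the skull.

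Libraries held between 17.7 and 34.4 M reads, which sets the value of 1 read between 0.61 and 1.35 normalized counts. The microglial identity of all libraries was checked on 10 marker genes, whose summed level ran from 1336966 to 1981291 normalized counts. In middle-aged female 2 that sum was 1757474, in aged female 1 it was 1635654, in aged male 1 it was 1550985 and in aged male 4 it was 1756060. Aged male 4 had the highest sum of its group, and the other libraries just named had the lowest of theirs. Middle-aged female 2 went against its label in part, with Xist at 42.4 normalized counts against 2321 or more in the other 10 female libraries, and with 0 reads of 4 Y-linked genes. Principal component 1 of all tested genes (15.4% of variance) placed the 8 young adult and middle-aged male libraries between 20.8 and 64.6 and the other 14 between -54.2 and 1.25.

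The members lie on 5 chromosomes, and several are neighbours (positions in mm10). S100a8 (chromosome 3, 90668978 to 90670035, plus strand) and S100a9 (chromosome 3, 90692632 to 90695721, minus strand) are 22.6 kb apart. Camp (chromosome 9, 109847379 to 109849617), Ngp (chromosome 9, 110419747 to 110423012) and Ltf (chromosome 9, 111019271 to 111042767) follow each other with gaps of 570 kb and 596 kb. Lcn2 (chromosome 2, 32384633 to 32388252) and Mmp9 (chromosome 2, 164940780 to 164955850) share a chromosome, as do Mmp8 (chromosome 9, 7558456 to 7568485) and Camp, but these lie far apart. Elane (chromosome 10, 79886247 to 79888215) and Retnlg (chromosome 16, 48872621 to 48874496) stand alone.

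The promoters of the 5 members that reached 10 normalized counts in at least 3 libraries are shown because these genes were high in the same libraries. Each run of 300 bases holds 250 bases before the RefSeq start site and 50 bases from it on, read on the gene's own strand (GRCm38.p6). Capitals mark a match to the core C/EBP motif TTGCNNAA or to the PU.1 motif GAGGAAGT, on either strand. C/EBP proteins and PU.1 are transcription factors of the myeloid lineage.
S100a8: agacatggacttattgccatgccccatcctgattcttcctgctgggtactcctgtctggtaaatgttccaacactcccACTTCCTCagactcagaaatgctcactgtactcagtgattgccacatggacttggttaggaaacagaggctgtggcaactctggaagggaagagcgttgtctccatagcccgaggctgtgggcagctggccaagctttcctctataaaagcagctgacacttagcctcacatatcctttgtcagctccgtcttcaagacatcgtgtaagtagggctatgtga
S100a9: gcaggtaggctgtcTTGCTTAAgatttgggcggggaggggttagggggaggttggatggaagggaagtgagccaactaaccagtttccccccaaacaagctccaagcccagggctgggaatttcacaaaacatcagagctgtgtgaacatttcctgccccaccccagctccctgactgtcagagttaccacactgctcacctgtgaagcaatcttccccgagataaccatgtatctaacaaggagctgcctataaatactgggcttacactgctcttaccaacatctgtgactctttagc
Ltf: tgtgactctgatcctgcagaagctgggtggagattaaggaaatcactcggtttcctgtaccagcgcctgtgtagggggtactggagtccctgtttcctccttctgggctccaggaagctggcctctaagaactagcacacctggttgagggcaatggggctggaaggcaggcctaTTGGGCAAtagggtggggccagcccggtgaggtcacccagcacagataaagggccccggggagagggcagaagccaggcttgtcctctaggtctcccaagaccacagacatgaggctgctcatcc
Lcn2: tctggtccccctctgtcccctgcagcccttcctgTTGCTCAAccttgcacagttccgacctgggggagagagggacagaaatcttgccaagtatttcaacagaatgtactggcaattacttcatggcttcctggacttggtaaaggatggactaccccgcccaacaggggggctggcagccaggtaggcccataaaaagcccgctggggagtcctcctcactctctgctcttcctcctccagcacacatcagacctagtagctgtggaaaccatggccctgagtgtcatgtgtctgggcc
Camp: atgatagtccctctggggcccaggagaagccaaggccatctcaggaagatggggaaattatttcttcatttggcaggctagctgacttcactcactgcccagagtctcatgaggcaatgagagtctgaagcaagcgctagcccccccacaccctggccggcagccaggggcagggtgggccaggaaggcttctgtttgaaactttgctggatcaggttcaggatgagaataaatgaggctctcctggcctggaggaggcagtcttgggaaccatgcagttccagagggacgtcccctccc

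In S100a9 the core C/EBP match TTGCTTAA lay from -236 to -229 relative to the start site (base 0), in Lcn2 TTGCTCAA lay from -216 to -209, and in Ltf the reverse complement TTGGGCAA lay from -75 to -68. S100a8 held no core C/EBP match in this window and instead the PU.1 match ACTTCCTC, a reverse complement, from -172 to -165. Camp held neither. A promoter window was found for 9 of the 10 members. The core C/EBP motif occurred in 6 of these 9 (S100a9, Ltf, Lcn2, Ngp, Mmp8 and Retnlg), against 10.8% of 32851 promoter windows of the same length. The PU.1 motif occurred in 3 of 9 (S100a8, Mmp8 and Elane), against 3.20% of windows. The wide C/EBP motif TTNNNNAA, which contains the core form, occurred in 7 of 9 members and in 61.5% of all windows. The NF-kappaB motif, searched over 10 bases, occurred in 3 of 9 (Ltf, Lcn2 and Camp) and in 50.8% of windows. These matches describe the letters only, and no binding was measured.

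S100a8 and S100a9 encode the calcium-binding subunits of calprotectin. S100a8 stood at 678.3 normalized counts in middle-aged female 2, at 719.9 in aged female 1, at 898.5 in aged male 1 and at 1290.8 in aged male 4. Its highest value in the other 18 libraries was 3.18, in middle-aged female 5. These 4 libraries were high for every member that reached 10 normalized counts in 3 or more libraries, and they come from 3 of the 6 groups.

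In the aged females S100a8 was at 1.15 in replicate 2 and at 1.12 in replicate 3, and in aged male 2 it had 0 reads. The other middle-aged females had 1.39 (replicate 3), 1.28 (replicate 4), 3.18 (replicate 5) and 1.27 (replicate 6). Middle-aged male 1 had 0.72, and the other 4 middle-aged males and all 6 young adults had 0 reads. Within each of the 3 groups that hold a high library, the low libraries of the same age and sex thus lay at 3 reads or fewer.

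S100a9 stood at 651.9 normalized counts in middle-aged female 2, at 639.0 in aged female 1, at 1000.2 in aged male 1 and at 1085.5 in aged male 4. Its next highest value was 2.49 in young adult female 4. It was at 1.15 in aged female 2, at 0.987 in aged male 2 and at 0 in aged female 3. Against S100a8 the read ratio of S100a9 was 0.961, 0.888, 1.11 and 0.841 in middle-aged female 2, aged female 1, aged male 1 and aged male 4, so S100a9 exceeded S100a8 in reads in aged male 1 only of these 4.

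Ltf, Lcn2 and Camp are secondary granule genes. Ltf encodes lactoferrin, an iron-binding protein. It stood at 643.9 normalized counts in middle-aged female 2, at 401.8 in aged female 1, at 746.6 in aged male 1 and at 1438 in aged male 4. Outside these its highest value was 3.74 in young adult female 4, followed by 3.46 in middle-aged female 3 and 3.18 in middle-aged female 5. All 5 middle-aged males and all 3 young adult males had 0 reads of Ltf.

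Lcn2 encodes lipocalin-2, which binds the siderophores with which bacteria take up iron. Its level was 339.2 normalized counts in middle-aged female 2, 172.6 in aged female 1, 245.9 in aged male 1 and 673.8 in aged male 4. The highest of the other libraries was aged female 2 at 6.89, which is 6 reads, the most of any of these 5 genes outside the 4 high libraries. Middle-aged female 3 had 2.77 and aged male 2 had 0.987, and the remaining 15 libraries had 0 reads.

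Camp encodes the precursor of the cathelicidin antimicrobial peptide. It stood at 588.9 normalized counts in middle-aged female 2, at 342.4 in aged female 1, at 594.7 in aged male 1 and at 998.5 in aged male 4. No other library passed the 1.73 of middle-aged male 5. For Camp as for the 4 genes above, the 4 high libraries did not overlap with the rest.

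**Figure D1:**
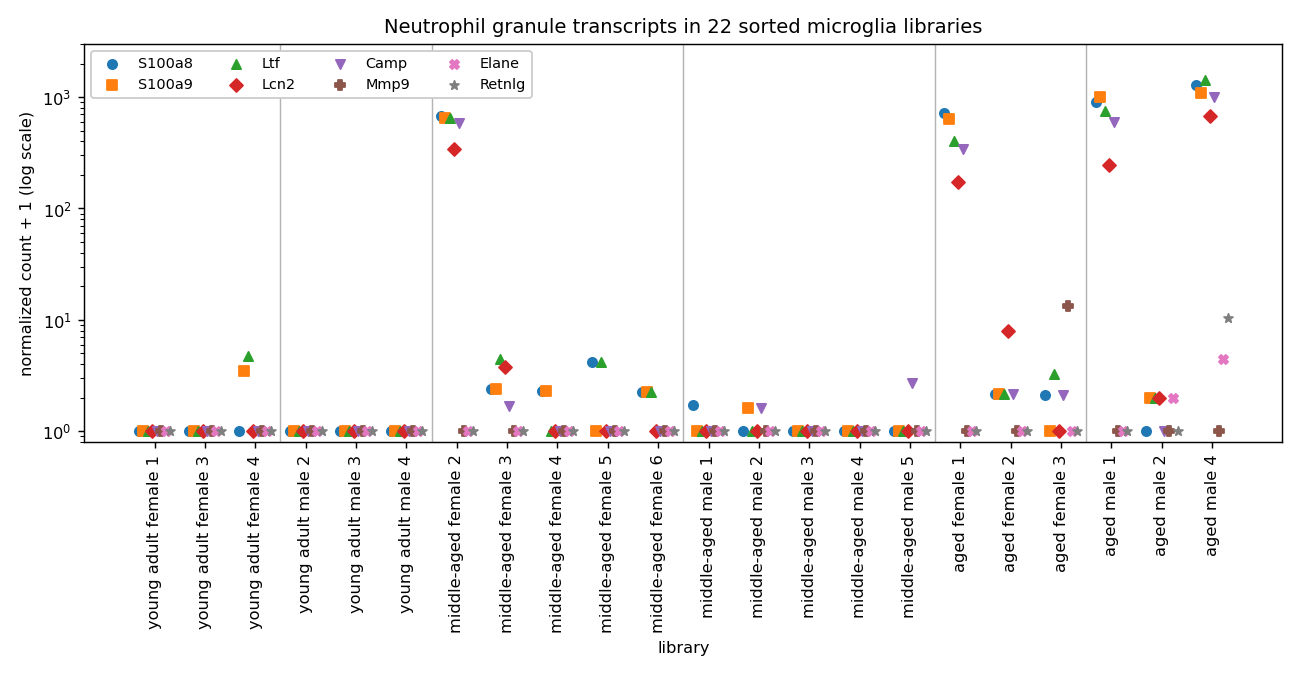
Level of each of the 8 members analysed (y axis, normalized count + 1, log scale) in each of the 22 libraries (x axis), with 1 symbol per gene and grey lines between groups. Middle-aged female 2, aged female 1, aged male 1 and aged male 4 lie between 172.6 and 1438 normalized counts for 5 genes, and no other library passes 6.89 for these.

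The remaining members analysed stayed low. Mmp9 encodes the gelatinase of tertiary granules and had reads in aged female 3 only, at 12.3 normalized counts (11 reads), a library in which S100a8 was at 1.12. Elane encodes neutrophil elastase, a serine protease of primary granules, and was at 3.48 in aged male 4 and at 0.987 in aged male 2, with 0 reads in the other 20 libraries. Retnlg, which encodes a secreted resistin-like protein of neutrophils, was at 9.28 in aged male 4 alone (8 reads). These 3 genes did not pass the filter of 10 normalized counts in 3 libraries.

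The separation was as wide in reads as in normalized counts. In the 4 high libraries no value of S100a8, S100a9, Ltf, Lcn2 or Camp was under 128 reads. The other 18 libraries gave 90 values for these genes, of which 61 were 0 reads, 18 were 1 read and 11 were 2 reads or more, up to 6. Of those 18 libraries, 7 had no read of any of the 5 genes, and the most that 1 of them had for all 5 was 14 reads, in middle-aged female 3.

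Summed over the 8 members, aged male 4 had 4742 reads, or 233.4 per M library reads (exact 95% interval 226.8 to 240.1). Aged male 1 had 151.1 per M (145.5 to 156.9), middle-aged female 2 had 125.2 (120.4 to 130.2) and aged female 1 had 95.6 (91.0 to 100.2). The highest of the others was aged female 3 at 0.711 per M (0.398 to 1.17), or 15 reads, 11 of them from Mmp9. The order of the 4 high libraries was clear of counting error, and it was not the order of their depth, which was 20.3 M reads in aged male 4, 17.9 M in aged male 1, 20.2 M in middle-aged female 2 and 17.7 M in aged female 1. The intervals cover counting error only, because reads of amplified libraries are not independent molecules. A library with 0 member reads still allows a low level, for example 0.140 per M in young adult female 1 for 3 reads of its total, or 0.173 per M by the upper bound of the exact 95% interval.

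Against a microglial transcript in the same libraries the member sum remained small. It came to 2.91% of the normalized count of P2ry12, a purinergic receptor of microglia, in aged male 4, to 2.02% in aged male 1, to 1.34% in middle-aged female 2 and to 1.27% in aged female 1. In bulk RNA, a few cells rich in a transcript and many cells with little of it cannot be told apart.

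Because the high libraries are spread over 3 groups, group means of the members carry SDs near or above the mean. S100a8 averaged 729.8 ± 661.7 normalized counts in aged males (SD, n = 3), 240.7 ± 415.0 in aged females (SD, n = 3) and 137.1 ± 302.6 in middle-aged females (SD, n = 5). The medians of these groups were 898.5, 1.15 and 1.39. Ltf averaged 728.6 ± 718.7 in aged males, 135.0 ± 231.0 in aged females and 130.4 ± 287.1 in middle-aged females. In middle-aged males, young adult females and young adult males the mean of each of the 8 members was 1.25 or lower. Aged males were the only group with more than 1 high library.

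In aged male 2, which had 0 reads of S100a8 and Camp, the limit that a count of 0 allows is 2.96 normalized counts (3 reads). Against it, S100a8 was at least 304-fold higher in aged male 1 and at least 436-fold higher in aged male 4, and Camp was at least 201-fold and 337-fold higher. The 3 libraries share age, sex, strain and sort.

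The mix of granule transcripts differed between some of the high libraries by more than the exact binomial intervals. These intervals treat reads as independent, which reads of amplified libraries are not. Lcn2 made up 12.3% of the reads of the 5 genes in aged male 4 (exact binomial 95% interval 11.4 to 13.2) and 11.7% in middle-aged female 2 (10.46 to 13.001), against 7.58% in aged female 1 (6.37 to 8.95) and 7.05% in aged male 1 (6.12 to 8.08). The share of Ltf was highest in aged male 4 at 26.2% (24.96 to 27.5) and lowest in aged female 1 at 17.7% (15.9 to 19.6). S100a8 made up 31.6% in aged female 1 (29.4 to 33.9) and between 23.4 and 25.8% in the other 3. The share of Camp ran from 15.05% in aged female 1 to 20.3% in middle-aged female 2, and that of S100a9 from 19.8% in aged male 4 to 28.7% in aged male 1.

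**Figure D2:**
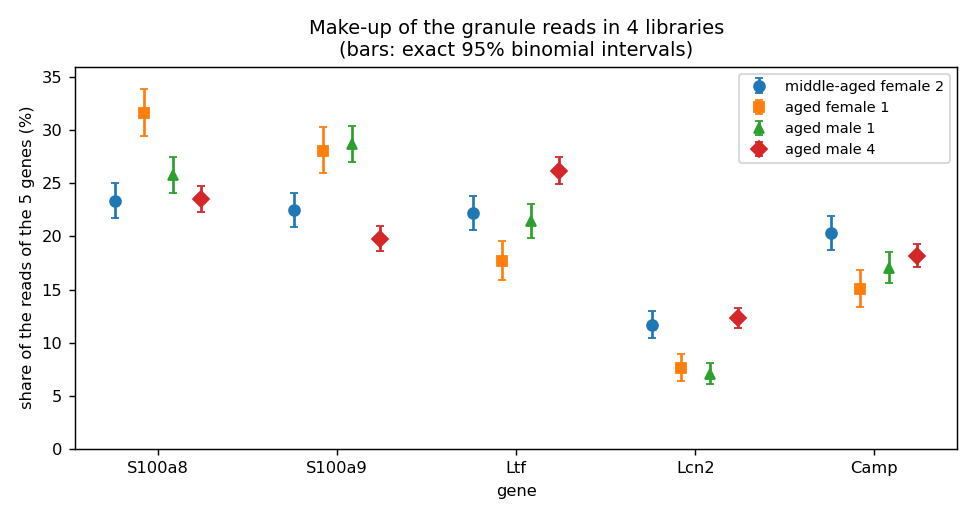
Share of each gene (x axis) in the reads of S100a8, S100a9, Ltf, Lcn2 and Camp together (y axis, percent) in the 4 libraries with 100 or more member reads. Points are single libraries and bars are exact 95% binomial intervals, which cover counting error only. Lcn2 sits at 12.3% in aged male 4 and 11.7% in middle-aged female 2, above 7.58% in aged female 1 and 7.05% in aged male 1.

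Per kilobase of the longest coding transcript, the calprotectin genes lay above the secondary granule genes in each high library. In aged male 4, S100a8 was at 2656 normalized counts per kb and S100a9 at 2092, followed by Camp at 1317, Lcn2 at 736.4 and Ltf at 524.3. In aged female 1 the order was S100a8 at 1481, S100a9 at 1231, Camp at 451.8, Lcn2 at 188.6 and Ltf at 146.5. In aged male 1 S100a9 (1927) lay above S100a8 (1849), and Ltf (272.2) was level with Lcn2 (268.7).

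The members were next set against other neutrophil genes. Of 43 further genes listed for neutrophil granules, cystatins, surface proteins and transcription factors, 30 were analysed. For 7 of these 30 the 4 highest libraries were the same 4 as for the members, namely Cd177, Chil3, Fcnb, Wfdc21, Hp, Pglyrp1 and Anxa1. Among all 18072 genes this held for 22, or 0.122%, and among the 12552 tested for 21, or 0.167%. The 5 members that passed the filter are among these. The 4 libraries were picked from the members' values, so this count is a description.

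Chil3, which encodes a chitinase-like protein of neutrophils and macrophages, had 511.0 normalized counts in middle-aged female 2, 283.1 in aged female 1, 271.6 in aged male 1 and 735.3 in aged male 4. Young adult female 3 followed at 149.9 (148 reads), although it had 0 reads of the 8 members. The same library had the highest value outside the 4 for Cd177, a surface protein of neutrophils, at 14.2, and for the plasma protein haptoglobin (Hp) at 4.05.

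Cd177 stood at 98.5 in middle-aged female 2, at 48.5 in aged female 1, at 55.4 in aged male 1 and at 170.5 in aged male 4. Anxa1, which encodes the anti-inflammatory annexin A1, was at 92.8, 66.1, 73.4 and 199.5 in the same order of libraries, with at most 7.66 elsewhere. Fcnb, which encodes the lectin ficolin B of maturing myeloid cells, was at 26.4, 17.5, 6.44 and 109.0, with 0 reads in the other 18 libraries. Aged male 4 was highest for Chil3, Cd177, Anxa1 and Fcnb, as it was for all 5 members.

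Pglyrp1 and Wfdc21 did not share that order. Wfdc21, a small whey acidic protein family gene, was highest in aged male 1 at 60.5, with 35.1 in aged female 1, 30.2 in aged male 4 and 22.9 in middle-aged female 2. Pglyrp1, which encodes a peptidoglycan recognition protein, was highest in aged male 1 at 48.9 and between 25.6 and 33.6 in the other 3. Hp was at 61.9 in middle-aged female 2, at 32.4 in aged female 1, at 64.4 in aged male 1 and at 66.1 in aged male 4.

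Genes of primary granules, made in the earliest precursors, were detected in aged males only. Ms4a3, a gene of myeloid progenitors, was at 35.95 normalized counts in aged male 4 and at 0 reads elsewhere. Prss57, a serine protease gene, was at 11.6 in aged male 1 and at 0 reads elsewhere. Cebpe encodes the C/EBP-epsilon factor that drives secondary granule genes, and it was at 16.2 in aged male 4, at 10.3 in middle-aged female 2, at 3.86 in aged male 1 and at 0 in aged female 1, with up to 3.62 in the other libraries. Mpo, Prtn3, Ctsg, Bpi, Ly6g and Gfi1 were not analysed here.

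Genes of the surface of mature neutrophils gave another picture. Fpr1, Fpr2, Trem1, Clec4d and Clec4e, which encode chemotactic and activating receptors, had 0 reads in all 4 high libraries. The chemokine receptor gene Cxcr2 was at 29.0 in aged male 4 and at 0 in the other 3, and it reached 25.3 in aged female 2, where S100a8 was at 1.15. Hdc, which encodes the histamine-forming enzyme, was at 37.3 in aged male 1 and at 19.7 in aged male 4, with at most 0.72 elsewhere.

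**Figure D3:**
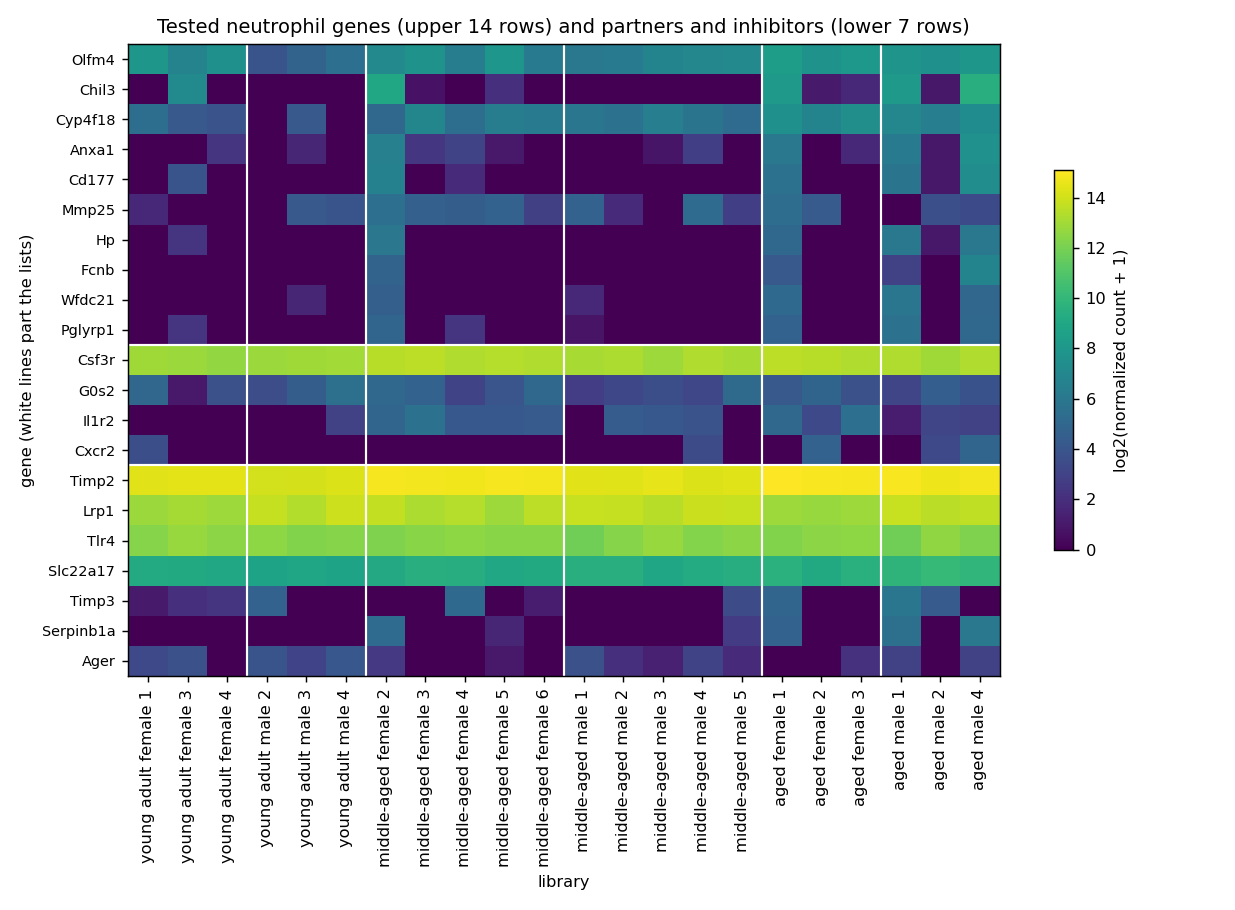
Colour shows the log2(normalized count + 1) of the 14 other neutrophil genes and 7 partner and inhibitor genes that passed the filter on low values (y axis) in each of the 22 libraries (x axis), with white lines between gene lists and between groups. Chil3, Anxa1, Cd177, Hp, Fcnb, Wfdc21, Pglyrp1 and Serpinb1a are brightest in middle-aged female 2, aged female 1, aged male 1 and aged male 4, whereas Csf3r, Timp2, Lrp1, Tlr4 and Slc22a17 are bright in all libraries.

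Outside the fixed lists, the other 9 genes with the same 4 highest libraries were Lrg1, Plbd1, S100a6, Ifitm6, Dclk1, Cope, Cox6a1, Kcnj12 and Syngr1. Lrg1, which encodes a leucine-rich glycoprotein found in neutrophil granules, was at 33.2 in middle-aged female 2, at 13.5 in aged female 1, at 16.7 in aged male 1 and at 33.6 in aged male 4, with at most 6.52 elsewhere. Plbd1, a phospholipase-like gene, was at 75.6, 18.9, 24.5 and 19.7 in that order, with at most 13.2 elsewhere. Cope, Cox6a1, Kcnj12 and Syngr1 were abundant in all libraries, and their 4 high values lay close to the rest (Cope 3134 in middle-aged female 2 against 3042 in young adult female 1).

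By Spearman rank over the 22 libraries, the 10 tested genes most like the mean log2 level of the 5 members were Tagln2 and Tspyl3 (rho 0.870 each), Syngr1 (0.861), Fam213b and Uap1l1 (0.859 each), Pigs (0.854), Timp2 (0.845), Slc25a20 (0.843), Rras (0.841) and Spns3 (0.839). All libraries had reads of each of these 10 genes, and for all but Syngr1 the levels in the high libraries overlapped with the rest. Tagln2, an actin-binding protein gene, was at 1342, 1471, 1552 and 1423 in middle-aged female 2, aged female 1, aged male 1 and aged male 4, and at 1384 in aged female 2. These ranks rest in large part on the order of 18 libraries that differ by a few member reads. By Pearson's r of log2 levels, a measure added after the ranks were seen, the 10 genes were Hp (0.959), Fcnb, Wfdc21, Serpinb1a, Pglyrp1, Anxa1, Cd177, Lrg1, Chil3 and Dclk1 (0.854), none of which is among the 10 by rank. That r rests on the 4 libraries that stand apart.

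Levels of markers of other cell types in the high libraries were as follows. Of 5 monocyte markers 2 were analysed (Fn1 and Vcan), and their sum was 1.15 in middle-aged female 2, 207.6 in aged female 1, 12.9 in aged male 1 and 58.0 in aged male 4. Over the groups the monocyte sums ran from 0 to 4.99 in young adult females, 4.22 to 6.65 in young adult males, 1.15 to 38.1 in middle-aged females, 0 to 36.7 in middle-aged males, 11.5 to 207.6 in aged females and 8.88 to 58.0 in aged males. Of 7 markers of border-associated macrophages 3 were analysed (F13a1, Cbr2 and Cd209f). Their sum was 149.0 in middle-aged female 2, 281.8 in aged female 1, 444.1 in aged male 1 and 127.6 in aged male 4, each the highest of its group apart from aged male 4, and F13a1 held most of it. The group ranges of that sum were 4.99 to 44.7 in young adult females, 11.6 to 244.7 in young adult males, 5.07 to 149.0 in middle-aged females, 6.05 to 68.3 in middle-aged males, 181.7 to 281.8 in aged females and 75.0 to 444.1 in aged males. Other marker lists are given only as sums over all 22 libraries. Those of NK cells ran from 40.4 to 240.5, of platelets from 563.9 to 1143 and of neurons from 7.85 to 190.2. Those of astrocytes ran from 4626 to 8277, of oligodendrocytes from 3363 to 5534 and of endothelial cells from 646.2 to 1455. The part of all these cells in the member levels was not tested.

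Markers of red cells and lymphocytes were also read in the high libraries. Of 8 erythroid markers 3 were analysed, and Alas2, the gene of haem synthesis, was at 70.8 in aged male 1, at most 12.1 in the other 3 and at most 24.9 in the 18 libraries without high member levels. The sum of the 3 erythroid markers reached 70.8 in aged males, 37.0 in middle-aged females, 24.9 in middle-aged males and 12.1 in aged females. In young adult females and males it reached 4.47 and 5.21. Of 6 T cell markers Cd4 and Cd8a were analysed, with Cd4 at 4.58 in middle-aged female 2, at 2.32 in aged male 4 and at 0 in the other 2. Of 7 B cell markers Ms4a1 and Jchain were at 3.86 or lower in the high libraries. Cd79b ran from 655.1 to 2058 over the other 18. The groups with high libraries were not low in the B cell markers summed. That sum ran from 908.8 to 941.7 in aged males, 934.2 to 1802 in aged females and 908.6 to 1349 in middle-aged females. The sum of 5 cell division markers (Mki67, Top2a, Ccnb2, Plk1 and Cdk1) was 301.8 in middle-aged female 2, 246.7 in aged female 1, 938.4 in aged male 1 and 1220 in aged male 4, against 615.8 in aged male 2. The values of middle-aged female 2 and aged female 1 were the lowest of their groups, which reached 502.8 and 494.6. In middle-aged males, where all members were at 2 reads or fewer, it ran from 573.3 to 1057.

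Age and sex were then compared for the other neutrophil genes and for genes that act on the member proteins, in a limma fit of all 22 libraries with 6 group means (log2 of the normalized count plus 1, two-sided, Benjamini-Hochberg adjusted over 12552 genes). Of the 30 neutrophil genes analysed, 14 passed the filter on low values and were tested, and of 10 partners and inhibitors 7 were tested. Of the 14, Cd177, Chil3, Anxa1, Fcnb, Wfdc21, Hp, Pglyrp1 and Cxcr2 passed that filter only through the 4 libraries high for the members (Cxcr2 through aged male 4), as did Serpinb1a among the partners. Log2 differences are given ± SE. P-values measure the spread between libraries, which may be technical. Principal component 1 set the 8 young adult and middle-aged male libraries apart from the other 14. Comparisons of those males with aged males, or with females of their age, run along that split. So does the difference between the sexes in the aged minus young adult step. What lies behind the split was not tested, and in these comparisons it cannot be told apart from age or sex.

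In females, 3 of the 14 neutrophil genes were higher at 96 to 104 than at 6 to 10 weeks, where 12.1% of all tested genes changed and 7.26% were higher. Csf3r encodes the receptor for granulocyte colony-stimulating factor, on which neutrophil production depends, and it is also expressed by microglia. It stood at 7823, 7068 and 6375 normalized counts in the 3 young adult females and at 12425, 11146 and 10120 in the 3 aged females, without overlap. The log2 difference was 0.66 ± 0.11 (adjusted p = 3.65e-04, limma).

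Middle-aged females were as high as aged ones, with Csf3r between 9982 and 12466 (log2 difference to young adults 0.63 ± 0.10, adjusted p = 2.97e-04, where 9.47% of genes changed). Without middle-aged female 2 it was 0.62 (adjusted p = 0.00102). Csf3r stood at 12425 in aged female 1, with S100a8 at 719.9, at 11146 in aged female 2, with S100a8 at 1.15, and at 10120 in aged female 3, with S100a8 at 1.12. Males gave 7717 ± 373 in young adults (SD, n = 3), 9012 ± 943 at middle age (SD, n = 5) and 9288 ± 1248 in the aged (SD, n = 3), and no male age step passed (adjusted p = 0.117 for aged against young adult males).

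Il1r2, which encodes the decoy receptor for interleukin-1, had 0 reads in all 3 young adult females. It was at 33.7, 9.19 and 44.9 normalized counts in the aged females and between 16.6 and 49.9 in the middle-aged ones, and both steps from young adults passed (adjusted p = 0.00817 and 0.00501, limma). Because the young adult females had no reads, no fold is given. In young adult males it was at 0, 0 and 6.65, in middle-aged males at 0 to 20.1 and in aged males at 1.29, 7.89 and 6.96, and no male step passed.

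Cyp4f18 encodes an enzyme that degrades leukotriene B4. It stood at 43.5, 17.2 and 13.7 in young adult females and at 188.7, 109.1 and 173.8 in aged females (log2 difference 2.75 ± 0.76, adjusted p = 0.0186, limma). The call was lost without the libraries high for the members (2.60, adjusted p = 0.0792), and also without aged female 1, aged female 3, young adult female 3 or young adult female 4 alone (adjusted p from 0.0543 to 0.0841). In males it was at 0, 17.7 and 0 in young adults and at 127.4, 86.8 and 161.2 in aged animals, a log2 difference of 5.53 ± 0.76 (adjusted p = 2.07e-05). Because the young adult males include values of 0, the size of this difference depends on the pseudocount of 1. Without aged males 1 and 4 the difference was 5.05 (adjusted p = 0.0123), with the remaining aged male assumed to vary like the other groups.

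Of the 14 neutrophil genes, 2 passed between aged and young adult males, both higher, where 16.9% of all genes changed and 9.31% were higher. Beside Cyp4f18 this was Olfm4, which encodes olfactomedin-4 of secondary granules. Olfm4 was at 14.3, 27.1 and 44.1 normalized counts in young adult males and at 218.8, 186.5 and 252.8 in aged males, without overlap (log2 difference 3.02 ± 0.45, adjusted p = 5.86e-05, limma). Aged male 2, which had 0 to 1 read of each member, held 186.5 of Olfm4. The count of 2 was 10 without aged male 2, which left only the high aged males 1 and 4. It was 4 with DESeq2 or with a pseudocount of 8.

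Middle-aged males lay between, with Olfm4 from 64.5 to 136.6 (1.89 ± 0.40 above young adult males, adjusted p = 0.0102, where 1.77% of genes changed) and Cyp4f18 from 37.2 to 87.1 (4.40 ± 0.68, adjusted p = 4.63e-04). Neither passed when only those 2 groups were fitted (adjusted p = 0.0818 and 0.0659), and Olfm4 did not pass without young adult male 2 (1.49, adjusted p = 0.118). In young adults Olfm4 was higher in females (249.0, 105.3 and 191.9) than in males, by 2.68 ± 0.45 (adjusted p = 2.96e-04, where 16.2% of genes differed), and so was Cyp4f18, by 3.11 ± 0.76 (adjusted p = 0.00678). For Cyp4f18 that call was lost without young adult male 2 (2.40, adjusted p = 0.0599), in edgeR (2.14, adjusted p = 0.0927) and with only the groups compared (adjusted p = 0.163). The 4.40 and 3.11 of Cyp4f18 involve young adult males without reads, so their size depends on the pseudocount of 1. The step of Olfm4 from young adult to aged differed between the sexes by -2.41 ± 0.64 in females against males (adjusted p = 0.0411, where 2.8% of genes passed). That call was lost without the high libraries (-2.35, adjusted p = 0.219), and it was lost in 14 of 22 alternatives in all, among them leaving out any 1 aged library (adjusted p from 0.0504 to 0.0854).

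Between aged and middle-aged males 3 of the 14 genes passed, Cd177, Chil3 and Hp, all higher (adjusted p = 0.0391, 0.0376 and 0.0374, limma), where 15.4% of all genes changed and 7.71% were higher. These 3 genes passed the filter only through the high libraries, 2 of which are aged males. The count and these adjusted p-values are therefore a description, and the count is not read against those shares. All 5 middle-aged males had 0 reads of each, so no fold is given. The count of 3 was 6 with edgeR, 7 with a pseudocount of 8 and 7 without aged male 2. In aged male 2 each was at 0.987 (1 read), so the call rests on aged males 1 and 4. Without either of them none of the 3 passed (adjusted p from 0.139 to 0.221), nor without any 1 middle-aged male (0.0515 to 0.0637) or without the 4 high libraries (0.749 to 0.832). None of the 14 passed between aged and middle-aged females or between aged females and aged males, where 1.38% and 0.43% of all genes changed, and 1 gene in each had an unadjusted p under 0.05 in limma. With edgeR and with DESeq2 on recovered reads none passed in these comparisons either, and 1 or 2 genes in each had an unadjusted p under 0.05.

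In middle-aged animals Csf3r was higher in females than in males by 0.29 ± 0.09 (adjusted p = 0.0185, limma, where 21.5% of genes differed), from 9982 to 12466 against 7501 to 9891. The call was lost with libraries scaled to equal totals (0.13, adjusted p = 0.356), without middle-aged female 3 (0.24, adjusted p = 0.0619) and without middle-aged male 3 (0.23, adjusted p = 0.0589). That scaling moves the median of all tested genes by -0.16 in this comparison. The list's median log2 difference was 3.16 between aged and young adult males and 1.13 between aged and young adult females. Over all genes tested these medians were -0.02 and 0.01. The male list median lies between Fcnb (3.23) and Wfdc21 (3.09), which passed the filter only through the libraries high for the members. The female list median lies between G0s2 (1.02) and Chil3 (1.24), and Chil3 passed in the same way. Both aged groups hold such libraries, which favours high list medians. The list medians are therefore a description and are not read against those of all genes.

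Of the partners of the member proteins, Tlr4, Lrp1, Timp2 and Slc22a17 were abundant in all libraries. Calprotectin binds Toll-like receptor 4, whose gene Tlr4 ran from 3619 in aged male 1 to 6982 in middle-aged male 3, and no age or sex comparison passed (the lowest adjusted p was 0.576, for aged against young adult males, limma). Ager, the gene of the receptor RAGE that also binds calprotectin, had at most 15.8 normalized counts in any library. Timp2 encodes an inhibitor of metalloproteinases such as Mmp8 and Mmp9. It rose from 22410 ± 703 normalized counts in young adult females to 31777 ± 2627 in aged females (SD, n = 3 each), a log2 difference of 0.50 ± 0.08 (adjusted p = 1.62e-04).

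In males Timp2 rose from 18320 ± 1624 to 28607 ± 2251 (SD, n = 3 each), by 0.64 ± 0.08 (adjusted p = 5.71e-06), and by 0.41 ± 0.07 between middle-aged and aged males (adjusted p = 4.38e-04). The last call was lost without the libraries high for the members (0.29, adjusted p = 0.111). At middle age Timp2 was higher in females, by 0.44 ± 0.06 (adjusted p = 1.11e-05). It was also higher in females among young adults, by 0.29 ± 0.08 (limma adjusted p = 0.0123), a call lost in 5 of 16 alternatives. Between aged females and males it did not pass (0.15, limma adjusted p = 0.385). From young adult to middle-aged females Timp2 rose by 0.39 ± 0.07 (limma adjusted p = 0.00117), a call kept in all 18 alternatives.

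Slc22a17 encodes a receptor for lipocalin-2. It was at 426.7, 470.6 and 430.9 normalized counts in young adult males and at 907.6, 1089.4 and 960.2 in aged males, a log2 difference of 1.15 ± 0.16 (adjusted p = 3.34e-05, limma). Aged male 2, with 1 read of Lcn2, had the highest value of Slc22a17 of all libraries. The gene also rose by 0.64 ± 0.15 from middle-aged to aged males (adjusted p = 0.00483), a call lost without the high libraries (0.78, adjusted p = 0.0615). In females it went from 566.3 ± 41.3 to 699.5 ± 114.7 (SD, n = 3 each), a difference of 0.29 that did not pass (adjusted p = 0.270).

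The difference between the sexes in that step was -0.86 ± 0.23 (adjusted p = 0.0460, and -1.09 with adjusted p = 0.0905 without the high libraries). This call was lost in 15 of 22 alternatives, among them leaving out any 1 young adult library (adjusted p from 0.0604 to 0.110 for the 10 single libraries that ended it). Lrp1, the gene of an endocytic receptor that takes up lactoferrin, was lower in females than in males in young adults (7725 ± 648 against 13375 ± 2656, SD, n = 3 each, log2 difference -0.78 ± 0.16, adjusted p = 0.00160). It was also lower in aged females (7362 ± 307 against 13065 ± 1519, -0.82 ± 0.16, adjusted p = 0.0225), and that call was lost without aged female 1 (adjusted p = 0.0629), without aged male 1 (0.0762) and without the 4 high libraries (-0.68, adjusted p = 0.355). At middle age Lrp1 was lower in females by a log2 difference of -0.40 ± 0.12 (limma adjusted p = 0.0198). That call was lost without middle-aged female 3 (adjusted p = 0.0519) or middle-aged female 5 (0.0759). Lrp1 did not pass in an age comparison.

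**Figure D4:**
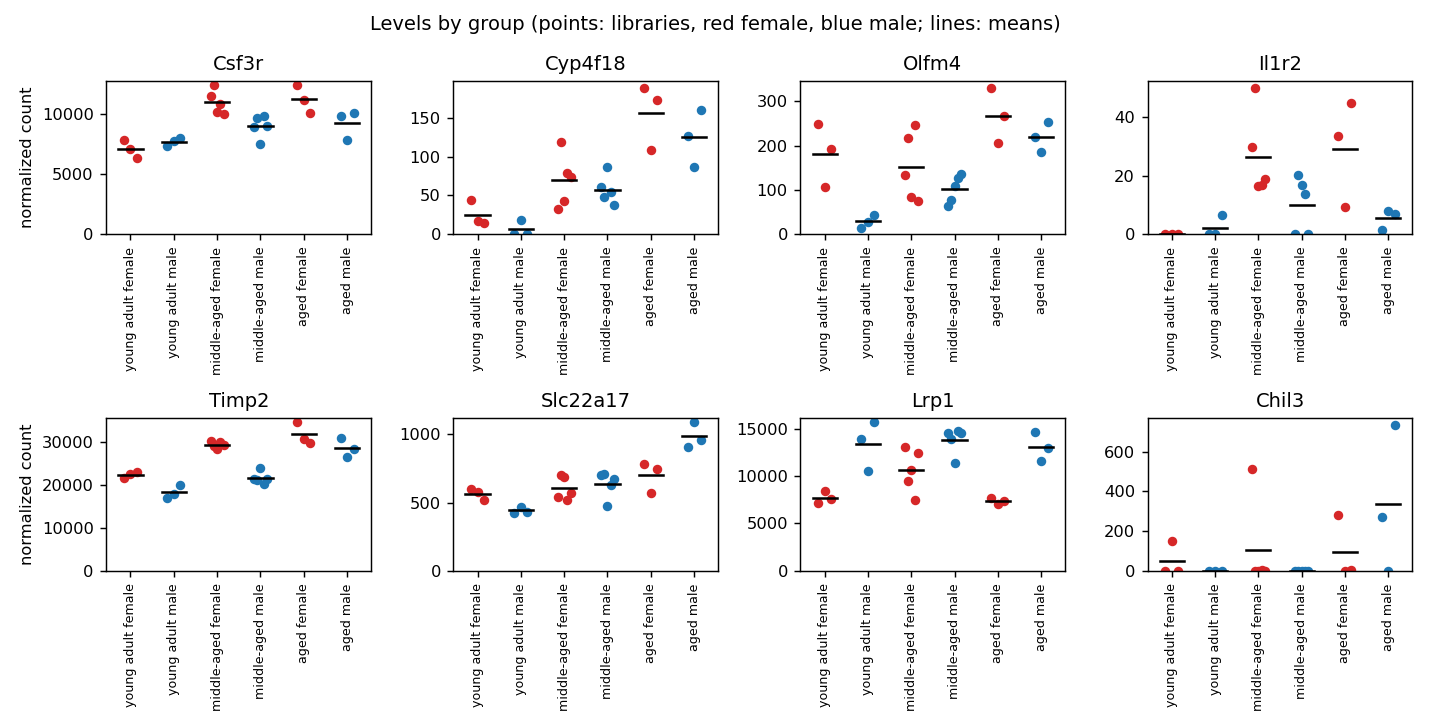
Normalized counts (y axes, from 0) of 8 neutrophil-related and partner genes by group (x axis), where points are libraries (red female, blue male) and lines are group means. Csf3r and Olfm4 are filled in all groups, with Csf3r at 7089 in young adult and 11230 in aged females on average, whereas Chil3 lies near 0 except in 5 libraries.

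Of the inhibitors of elastase, Serpinb1a was the partner gene that followed the members, at 37.8 normalized counts in middle-aged female 2, 25.6 in aged female 1, 46.3 in aged male 1 and 66.1 in aged male 4, with at most 5.19 elsewhere. Slpi, the secretory leukocyte protease inhibitor gene, had at most 1.16 in any library. Timp1 had at most 2.30, and Timp3 was at 29.7 in aged female 1, at 60.5 in aged male 1 and at 0 in middle-aged female 2 and aged male 4. No comparison of Serpinb1a or Timp3 passed.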

How the data were processed

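Per the labels' protocols, cDNA from sorted microglia was made with SMARTer v4 and tagmented with Nextera XT. Trimming with Trim Galore 0.4.3, the aligner STAR 2.5.2, the package DESeq2 1.32.0 and the build mm10 appear in the submitters' processing notes. The read counter, its strand setting and its annotation are named in no source used here, so reads of overlapping or antisense genes cannot be told apart. The deposited table holds 1 signal value per gene and library, a read count that the authors divided by a size factor, and it is called a normalized count here. In each library 100% of values were whole multiples of a step, the value of 1 read, within 0.01 reads (largest distance 9.02e-05), and whole reads and depth were recovered from it.

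Libraries were grouped by age and sex in the labels, 6 groups in all, and none was left out. Genes with 10 or more normalized counts in 3 or more libraries (12552) were fitted in limma 3.58.1 (R 4.3.3, trended empirical Bayes, pseudocount 1), with a threshold of 0.05 on the adjusted p. Tried as alternatives were other pseudocounts (0.25 and 8), no filter, TMM factors, equal totals, edgeR 4.0.16 and DESeq2 1.42.0 on recovered reads, a fit of the compared groups alone, a block for the replicate number, and omission of each library. Leaving out together the 4 libraries with over 100 reads of S100a8 was added after seeing the data. The fit was tested on simulated data.

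The members, gene lists, motifs and the rule for named genes were chosen with earlier results of these data known. The rule named all members, up to 4 genes with the highest mean of each list, every listed gene that passed in a comparison described, and the 10 genes most like the members by Spearman rank. Genes of the NK cell, platelet, neuron, astrocyte, oligodendrocyte and endothelial lists were not named, and only their sums are given. Other genes in the text were named after their values were seen. Positions came from GENCODE vM21 and promoters from RefSeq (GRCm38.p6).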

Additional observations from a re-analysis of the deposited data

Results flagged for a closer look

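In the 5 middle-aged females, replicate 2 lay far from the others for each member that passed the filter. Its gap to the next library, as a share of the whole range of the group, was 0.997 for S100a8, 0.998 for S100a9, 0.995 for Ltf, 0.992 for Lcn2, 0.999 for Camp and 0.998 for the 8 members summed, where Dixon's 95% critical value for 5 libraries is 0.71. The members were chosen with these values known, so the ratios are a description and no test, and groups of 3 were not looked at in this way. The 5 genes share this library, so these are not separate events. The same library had Xist at 42.4 normalized counts, and the relation of this to the member levels was not tested.

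The step from young adult to aged differed between females and males for Olfm4, by -2.41 on the log2 scale (limma adjusted p = 0.0411), and for the lipocalin-2 receptor gene Slc22a17, by -0.86 (adjusted p = 0.0460). Of 22 alternatives, 14 lost the call for Olfm4 and 15 lost it for Slc22a17, among them for both genes no filter on low values, a fit of only the groups compared, the replicate block and leaving out the 4 high libraries.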

How the results depend on the processing

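The count of neutrophil genes that passed kept within 1.5 times its value in 139 of the alternatives tried and moved further in 39. Between aged and young adult males it was 2, and 4 with a pseudocount of 8 and with DESeq2 (2 to 10 leaving out 1 library, 10 without aged male 2). Between aged and middle-aged males it was 3, and 7 with a pseudocount of 8, 6 with edgeR, 1 (Olfm4) with the replicate block, 0 without the 4 libraries high for the members, and 0 to 7 leaving out 1 library. Between middle-aged and young adult males it was 2, and 0 with only the groups compared (1 to 2 leaving out 1 library). Between young adult females and males it was 2, and 1 with edgeR and with only the groups compared (1 to 2). Between middle-aged females and males it was 1, and 0 at the same total, 3 with edgeR and 2 with DESeq2 (0 to 2). For the difference between the sexes in the aged minus young adult step it was 1, and 0 with no filter, with only the groups compared, with the replicate block and without the 4 libraries, and 2 with DESeq2 (0 to 1). Leaving out aged male 2 left aged males 1 and 4, both high for the members, as the aged male group. Where libraries were left out, fewer also entered the fit. The cause of these changes was not tested. Leaving out 1 library gave 2 to 3 between aged and young adult females, 2 between middle-aged and young adult females, and 0 between aged and middle-aged females and between aged females and males.

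Of the values of single genes, 1456 were labelled as kept, 87 lost the call, 10 moved and 0 reversed. For tested genes, kept means the same direction and the same side of the threshold. For the members, which had no test, it means a group median or log2 difference that stayed within the SD between libraries. That margin is wide where a group holds a high library, so much of this count involves no call. With libraries scaled to equal totals, the median of all tested genes moved by -0.16 between middle-aged females and males, by -0.15 between young adult females and males, by -0.14 between aged and middle-aged males and by -0.11 between aged and young adult males, and by less than 0.1 elsewhere. Replicate numbers did not pair the libraries: the mean correlation of residuals was 0.00706 over 37 pairs with the same number in different groups and -0.00162 over 162 pairs with different numbers. Over all genes, DESeq2 called 206 between aged females and males against 54 in limma, 368 against 173 between aged and middle-aged females, 409 against 222 between middle-aged and young adult males, and 714 against 351 for the difference between the sexes. The replicate block called 20, 52, 171 and 200 there, and 792 against 1189 between middle-aged and young adult females. Without the 4 libraries the calls were 670 against 2124 between aged and young adult males, 382 against 1937 between aged and middle-aged males, 32 between aged and middle-aged females, 14 between aged females and males and 97 for the difference between the sexes. At these depths 1 read is worth up to 1.35 normalized counts, and levels under 3 reads were not resolved.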
